A study of Mus musculus with 24 samples.

Results

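The genes described here are 9 markers of resident Kupffer cells, the macrophages of the liver: Clec4f, Vsig4, Cd163, Timd4, Marco, Cd5l, C1qa, C1qb and C1qc. They were taken by gene symbol and are 9 of the 18820 symbols measured. Where several probe sets carry a symbol, the one with the highest mean over the 24 arrays was to stand for it, but each of the 9 had a single probe set and all 9 were measured.

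Liver RNA of male C57/BL6 mice was hybridised to 24 arrays, 3 in each of 8 groups. JNK1-/- mice lack the stress kinase JNK1 (gene symbol Mapk8) in all cells. JNK1Δhepa mice carry JNK1f/f alleles together with a Cre recombinase under the albumin promoter, which is active after birth in hepatocytes and not in macrophages. Control mice carry the JNK1f/f alleles without further deletion. JNK1-/-, JNK1Δhepa and control mice underwent bile duct ligation (BDL), which blocks bile flow, and control mice alone also underwent a sham operation in which the abdomen was opened and closed. Livers were taken 28 d or 48 h after surgery, from mice labelled as 12 and 8 weeks old. The mutants had no sham group, so every genotype difference below lies between ligated livers. The labels identify the samples of a group by replicate number only, and p-values measure the spread between these samples. All values are log2 intensities, and a difference of 1 corresponds to a doubling of intensity.

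Kupffer cells sit in the sinusoids, where blood from the gut reaches the liver, and clear bacteria, dying cells and old erythrocytes. Resident cells are seeded before birth and renew themselves in place, and after injury blood monocytes enter the liver and can take on part of the same gene programme. Clec4f, a C-type lectin, is restricted in mice to Kupffer cells. Timd4 is a phosphatidylserine receptor for dying cells and is acquired late by macrophages of monocyte origin. Vsig4 is a receptor for complement fragments, Cd163 takes up haemoglobin bound to haptoglobin, Marco is a class A scavenger receptor for bacteria, and Cd5l is a secreted protein of tissue macrophages. C1qa, C1qb and C1qc encode the 3 chains of C1q, which starts the classical complement pathway and is made by macrophages in many tissues.

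The stretches of 250 bases before the annotated start of 5 of these genes are shown because the genes behaved differently: C1qb and C1qc moved together, Marco had the largest measured difference after ligation, Cd163 differed between genotypes and Clec4f was not called for ligation. Windows for 8 of the 9 genes were found in RefSeq's GRCm38.p6 table; C1qa was not among them. The sequences run 5′ to 3′ on the strand of the gene. Capitals mark the core letters of 4 motifs, searched on both strands, so that a match on the reverse strand appears as its reverse complement. PU.1, a factor that macrophages need, binds the core GAGGAA. MAF factors, which act in differentiated macrophages, bind sites that contain TGCTGA. RBPJ, the effector of Notch signals, binds the core TGGGAA. The TATA box, where transcription can be positioned, was searched as TATAAA. No marked matches overlap in the windows shown.
C1qb, chr4:136886201-136886450, minus strand: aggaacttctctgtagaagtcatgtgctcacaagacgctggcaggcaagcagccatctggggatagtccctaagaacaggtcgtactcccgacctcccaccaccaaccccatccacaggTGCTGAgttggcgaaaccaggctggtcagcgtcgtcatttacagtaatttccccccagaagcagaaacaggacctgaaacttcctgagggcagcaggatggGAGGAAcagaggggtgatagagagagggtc
C1qc, chr4:136892915-136893164, minus strand: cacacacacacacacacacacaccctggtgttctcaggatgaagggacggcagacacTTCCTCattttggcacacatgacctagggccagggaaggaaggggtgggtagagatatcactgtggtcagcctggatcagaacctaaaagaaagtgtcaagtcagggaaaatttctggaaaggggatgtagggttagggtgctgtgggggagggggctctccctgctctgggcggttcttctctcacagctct
Marco, chr1:120505025-120505274, minus strand: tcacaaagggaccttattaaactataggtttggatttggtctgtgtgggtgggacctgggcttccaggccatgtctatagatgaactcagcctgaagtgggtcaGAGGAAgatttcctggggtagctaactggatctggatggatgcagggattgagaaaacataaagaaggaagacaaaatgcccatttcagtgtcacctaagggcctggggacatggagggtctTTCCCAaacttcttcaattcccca
Cd163, chr6:124304401-124304650, plus strand: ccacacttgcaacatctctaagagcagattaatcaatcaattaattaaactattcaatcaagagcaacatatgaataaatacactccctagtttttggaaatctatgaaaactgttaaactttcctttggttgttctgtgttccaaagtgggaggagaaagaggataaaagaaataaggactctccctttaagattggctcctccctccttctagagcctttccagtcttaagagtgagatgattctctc
Clec4f, chr6:83656117-83656366, minus strand: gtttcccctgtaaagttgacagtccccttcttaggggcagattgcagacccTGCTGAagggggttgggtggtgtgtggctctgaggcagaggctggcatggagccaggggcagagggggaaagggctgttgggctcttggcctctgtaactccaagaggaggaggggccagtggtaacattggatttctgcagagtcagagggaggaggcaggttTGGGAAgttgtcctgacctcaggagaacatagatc

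The core GAGGAA was present in 5 of the 8 windows and in 23.3% of 32817 windows of all genes. The MAF letters TGCTGA occurred in 4 of 8 (16.1% of all windows), TGGGAA in 2 of 8 (21.6%) and TATAAA in 0 of 8 (12.4%). C1qb holds GAGGAA at bases 30 to 25 before the start and TGCTGA at bases 131 to 126, and C1qc holds 1 match of GAGGAA, on the reverse strand at bases 193 to 188. Marco holds GAGGAA and TGGGAA, Clec4f TGCTGA and TGGGAA, and the window of Cd163 none of the 4. These matches describe letters in a window and were not tested against the measurements.

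Mapk8 was read first as a check of the labels. In JNK1-/- livers it lay between 5.18 and 6.17. In control livers it was 7.37 to 7.67 in both ligated groups and after sham surgery at 28 d, but 6.67 to 6.93 on the arrays labelled control sham 48 h, all of them below the rest of the controls. JNK1Δhepa livers read 6.76 to 6.97, except for 7.67 on the array labelled JNK1Δhepa 28 d replicate 1, which is at the control level. Wherever a direction below rests on one of these 4 arrays, this limit goes with it.

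Several arrays stood apart from their groups. In the array of JNK1-/- liver ligated for 48 h, replicate 1, 425 genes (2.26%) lay more than 1 log2 unit outside both other arrays, and in control liver ligated for 28 d it was 494 genes in replicate 1 and 468 in replicate 3. In the remaining arrays this count was 6 to 137. The JNK1-/- array matters most for the markers: Clec4f read 6.89 in it, against 9.56 and 9.84 in the other 2 arrays, Marco 10.08 against 7.19 and 7.21, and Timd4 8.47 against 7.30 and 7.57. Leaving the array out lowered the SD pooled over groups to 0.31 in place of 0.65 for Clec4f, to 0.45 in place of 0.73 for Marco and to 0.19 in place of 0.28 for Timd4. Marker calls that change without this array are given both ways. So are the gene list counts of ligation against sham that are printed below and change without it. Not every list count is printed.

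**Figure D1:**
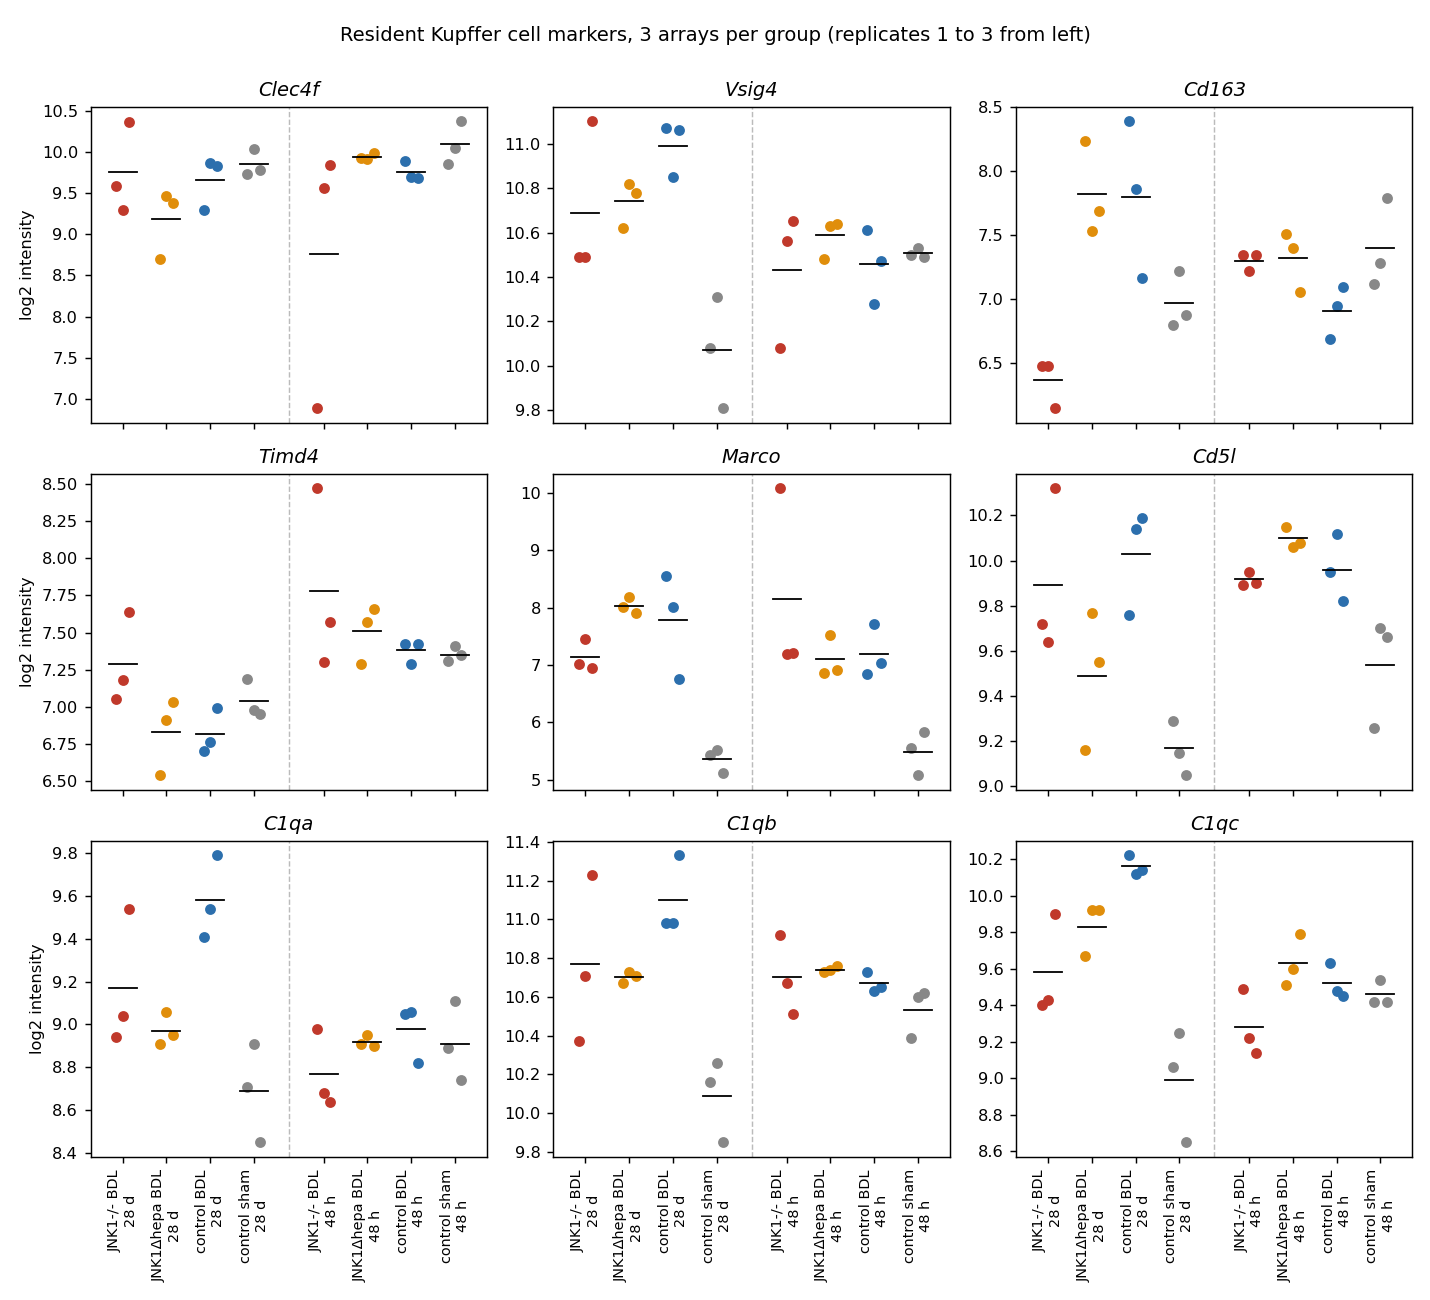
Log2 intensity (y axis) of the 9 markers in each of 8 groups (x axis), with 28 d left and 48 h right of the dashed line. Points are the 3 arrays of a group in replicate order and black lines are group means; Marco lies at 6.76 or higher in every ligated liver and at 5.84 or lower in every sham liver, and Cd163 is lowest in JNK1-/- liver ligated for 28 d.

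In sham-operated livers the markers gave different levels of signal. At 28 d after sham surgery the group means were 10.09 for C1qb, 10.07 for Vsig4, 9.85 for Clec4f, 9.17 for Cd5l, 8.99 for C1qc, 8.69 for C1qa, 7.04 for Timd4, 6.97 for Cd163 and 5.36 for Marco. The median of all probe sets on an array was 5.184 to 5.324, so Marco was close to it and the other 8 lay above it. The table gives no detection calls, so Marco in sham liver is not shown to be above background, and an estimated fold over that level may be too small. Signals of different probe sets are not compared as amounts of RNA.

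Ligation for 28 d in control liver, compared with sham surgery, addressed chronic cholestasis. All 3 C1q chains, Vsig4, Cd163 and Cd5l rose, by 1.79-fold to 2.25-fold, and Marco rose by an estimated 5.36-fold, whereas Clec4f and Timd4 were not called. The call was an adjusted p under 0.05 by limma over all 18820 genes, and 23.2% of all genes passed it in this comparison, 11.7% as higher after ligation. Of the 9 markers 7 were called higher and 0 lower, with a median difference of 0.89 for the markers and -0.03 for all genes. With each array centred on its median the median of all genes was -0.23 and the split of called genes was 1212 higher and 5695 lower, in place of 2199 and 2161. In whole liver, more cells of a type and more RNA per cell cannot be told apart, here or in any result below.

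Marco had the largest measured difference of the 9. It read 8.56, 8.02 and 6.76 in ligated livers, against 5.43, 5.52 and 5.11 in sham livers. All 3 ligated livers lay above all 3 sham livers, although ligated replicate 3 was well below the other 2. The difference was 2.42 (SE 0.54, confidence interval 1.29 to 3.55, an estimated 5.36-fold, adjusted p = 0.00273). Its SE was 0.33 without the JNK1-/- array that stood apart.

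The 3 chains of C1q rose together. C1qc read 10.22, 10.12 and 10.14 after ligation, against 9.06, 9.25 and 8.65 after sham surgery. C1qb read 10.98, 10.98 and 11.33, against 10.16, 10.26 and 9.85, and C1qa read 9.41, 9.54 and 9.79, against 8.71, 8.91 and 8.45. For each chain the groups did not overlap, and ligated livers varied little for C1qc. The differences were 1.17 for C1qc (SE 0.14, adjusted p = 9.80e-06), 1.01 for C1qb (SE 0.16, adjusted p = 0.000136) and 0.89 for C1qa (SE 0.15, adjusted p = 0.000228). Over all 24 arrays the correlation was 0.85 between C1qb and C1qc, 0.85 between C1qa and C1qc and 0.82 between C1qa and C1qb. These are descriptions over arrays that share groups and total signal, and between deviations from the group means they were 0.76, 0.77 and 0.84.

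No measured gene of the complement proteins that C1q works with was called higher. C4b and C3, which were also on this list, had no usable probe set and were not read. C1ra and C1s1, the proteases of the C1 complex, fell by 0.67 (SE 0.17, adjusted p = 0.00646) and 0.65 (SE 0.19, adjusted p = 0.0163). C2, the next protease of the pathway, had a difference of -0.33 (adjusted p = 0.0509), Serping1, the C1 inhibitor, -0.17 (adjusted p = 0.217), and C4bp, which restrains C4, 0.04 (adjusted p = 0.834). Of these 5 measured partners 0 were called higher and 2 lower, with a median of -0.33, and 3 were called lower without the JNK1-/- array that stood apart. Their mean level lay at 10.01 to 10.38 in ligated livers and at 10.45 to 10.67 in sham livers.

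The complement receptor Vsig4 read 11.07, 10.85 and 11.06 in ligated livers, against 10.08, 10.31 and 9.81 in sham livers. Secreted Cd5l read 9.76, 10.14 and 10.19, against 9.29, 9.15 and 9.05. In both genes ligated and sham livers were separate. Vsig4 rose by 0.92 (SE 0.16, adjusted p = 0.000332) and Cd5l by 0.87 (SE 0.17, adjusted p = 0.000929).

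The haemoglobin receptor Cd163 read 8.39, 7.86 and 7.17 in ligated livers, against 6.80, 7.22 and 6.88 in sham livers. Its groups overlapped, since ligated replicate 3 lay below sham replicate 2. The difference of 0.84 (SE 0.24, adjusted p = 0.0164) was called. The call was lost without ligated replicate 1, without sham replicate 1 or 3, with each array centred on its median and in a fit to these 6 arrays alone, with adjusted p over all alternatives of 0.00102 to 0.238.

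Neither of the 2 genes most particular to resident cells by background knowledge was called. Clec4f read 9.30, 9.87 and 9.83 in ligated livers, against 9.73, 10.03 and 9.78 in sham livers. Timd4 read 6.70, 6.76 and 6.99, against 7.19, 6.98 and 6.95. The ligated and sham ranges overlapped in both. Clec4f differed by -0.18 (95% confidence interval -1.19 to 0.82, adjusted p = 0.828) and Timd4 by -0.22 (-0.67 to 0.22, adjusted p = 0.5), and these intervals leave room for changes in either direction. Without the JNK1-/- array that stood apart, which belongs to neither group, the intervals were -0.67 to 0.30 for Clec4f and -0.53 to 0.09 for Timd4, and neither gene was called.

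**Figure D2:**
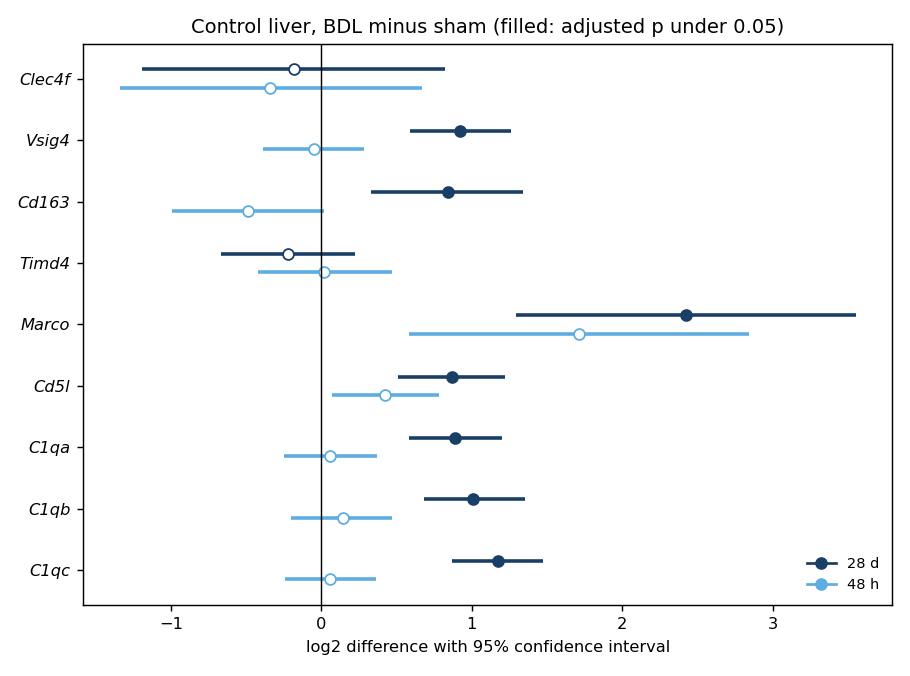
Log2 difference of ligated minus sham control liver (x axis) for each marker (rows), at 28 d in dark blue and 48 h in light blue. Bars are 95% confidence intervals from the model over all arrays and filled points have an adjusted p under 0.05: 7 markers at 28 d and 0 at 48 h.

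Other macrophage genes also rose at 28 d. Of 13 pan-macrophage genes 10 were called higher and 0 lower (median 1.24), among them Ctss, a lysosomal protease (1.46, SE 0.11), Fcgr3, an activating Fc receptor (1.75, SE 0.19), Cd68, a lysosomal membrane protein (1.51, SE 0.18), and Tyrobp, a signalling adaptor (1.41, SE 0.20). Of 10 genes of recruited macrophages 8 were called higher and 0 lower (median 1.70), with Gpnmb, a glycoprotein of lipid-laden macrophages, at 3.98 (SE 0.51), Chil3, a chitinase-like protein, at 3.35 (SE 0.37), Lgals3, a galectin, at 2.0 (SE 0.14) and Cd9, a tetraspanin, at 1.68 (SE 0.11). The mean level of the pan-macrophage list was 8.56 to 9.28 in ligated livers and 7.56 to 7.86 in sham livers, and that of the recruited list 7.08 to 7.68 and 5.56 to 5.73. The mean of the 9 markers was 9.25 to 9.37 in ligated livers and 8.28 to 8.62 in sham livers. The part of recruited cells in the marker differences was not tested.

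Among 11 other genes of resident macrophages 7 were called higher and 1 lower (median 0.47). Slc11a1, a metal exporter of phagosomes, rose by 1.15 (SE 0.17), Il18bp, the inhibitor of interleukin 18, by 1.01 (SE 0.16) and Cfp, properdin of the alternative complement pathway, by 0.90 (SE 0.20), while Hpgd, which degrades prostaglandins, fell by 1.16 (SE 0.19). Of 8 transcription factors of Kupffer cells 4 were called higher and 1 lower (median 0.79). Spi1, which encodes PU.1, rose by 1.01 (SE 0.18), Id1 by 2.12 (SE 0.32) and Irf8 by 0.71 (SE 0.16), while Nr1h3, the liver X receptor alpha of Kupffer cell identity that hepatocytes also express, fell by 0.61 (SE 0.16). Of 7 other scavenger receptors 3 were called higher and 0 lower (median 0.86): Cd36 at 1.50 (SE 0.19), Scara5 at 1.74 (SE 0.48) and Msr1 at 0.86 (SE 0.25). Of 12 signals of the Kupffer cell niche the Notch receptor gene Notch2 was called, at 0.52 (SE 0.13), with a median of 0.27. The other 3 niche genes of smallest p were not called, with Dll1 at 0.42 (adjusted p = 0.0781), Rbpj at 0.24 (adjusted p = 0.11) and Smad4 at 0.29 (adjusted p = 0.16).

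Markers of other liver cells moved in the same comparison. Sinusoidal endothelial markers had 0 called higher and 4 lower of 11 (median -0.66), with a mean level of 8.08 to 8.74 in ligated livers and 8.94 to 9.12 in sham livers. Dnase1l3, a nuclease of these cells and of some macrophages, fell by 1.72 (SE 0.34) and Kdr, the receptor of VEGF, by 1.23 (SE 0.23). Hepatocyte markers had 0 higher and 3 lower of 7, with mean levels of 12.83 to 12.86 and 13.04 to 13.09 in ligated and sham livers. Neutrophil markers were called higher in 6 of 6 (mean level 5.62 to 6.04 in ligated livers, 4.09 to 4.34 in sham livers), cholangiocyte markers in 3 of 7 (5.86 to 8.08 and 5.13 to 5.91 in the same order) and stellate cell and fibroblast markers in 1 of 8 (7.51 to 9.82 and 7.84 to 8.01). Peritoneal macrophage markers had 5 higher of 6, with Gata6, the factor that defines those cells and is also expressed elsewhere, at 1.16 (SE 0.15), and mean levels of 8.15 to 8.31 and 7.29 to 7.44. Lrg1, also called (0.95, SE 0.12), read 12.92, 12.61 and 12.67 in JNK1-/- liver ligated for 48 h, close to the mean level of hepatocyte markers there (13.02 to 13.05). This list was therefore not shown to be particular to peritoneal macrophages in whole liver. Dendritic cell markers had 0 called of 6 (mean levels 4.84 to 5.02 and 5.02 to 5.09). Lymphocyte markers had 1 lower of 6 (mean levels 4.06 to 4.27 and 4.32 to 4.42), the B cell gene Ms4a1 at -0.75 (SE 0.15). In these groups the mean levels of both lists lay below the array medians of all probe sets. Without the JNK1-/- array that stood apart, the 28 d counts were 6 lower of 11 for sinusoidal endothelial markers, 9 higher of 10 for recruited macrophage genes and 5 higher of 8 for Kupffer cell transcription factors, and those of the other macrophage, niche, scavenger receptor and cell type lists were as given. The share of all genes called at 28 d without that array is not given, here or for the complement partners. The part of other liver cells in the marker differences was not tested.

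Ligation for 48 h in control liver addressed acute cholestasis. By limma 0 of the 9 markers were called, 2 at an unadjusted p under 0.05, while 9.43% of all genes were called. Marco came closest: it read 6.84, 7.72 and 7.04 in ligated livers, against 5.55, 5.08 and 5.84 in the arrays labelled control sham 48 h. The groups did not overlap, and the difference was 1.71 (SE 0.54, adjusted p = 0.0521). Without the JNK1-/- array that stood apart, its SE was 0.33 and its adjusted p 0.00202. The adjusted p of Marco also fell below 0.05 with dim symbols left out, with replicate number as a block, in a fit to these 6 arrays alone and with the sham arrays of 28 d as reference. These and the fit without the JNK1-/- array were the 5 of 15 alternatives that called Marco. Its adjusted p over all alternatives was 0.00202 to 0.179.

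Cd5l read 9.95, 10.12 and 9.82 in ligated livers, against 9.26, 9.70 and 9.66 in the arrays labelled control sham 48 h. The groups were separate, with a difference of 0.42 (SE 0.17, adjusted p = 0.13). Cd163 read 6.69, 6.95 and 7.10, against 7.12, 7.28 and 7.79, and its difference of -0.49 had an interval of -0.99 to 0.02 (adjusted p = 0.236). The other 6 markers had differences from -0.34 (Clec4f) to 0.14 (C1qb). With the sham arrays of 28 d in place of those labelled control sham 48 h, 4 markers were called higher: Marco at 1.84, Cd5l at 0.80, C1qb at 0.58 and C1qc at 0.53. The share of all genes called with that reference is not given, so this count is not read as a result about the markers.

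Recruited macrophage genes were called higher in 8 of 10 at 48 h (median 1.33), with a mean level of 7.04 to 7.06 in ligated livers and 5.74 to 5.85 in the arrays labelled control sham 48 h. Pan-macrophage genes had 3 higher of 13 (median 0.30), Kupffer cell transcription factors 2 of 8 (median 0.39), other resident genes 1 of 11 (median 0.01) and other scavenger receptors 1 of 7 (median 0.16). Classical complement partners had 0 of 5 called by limma, 0 at an unadjusted p under 0.05 (median -0.13). Of 12 niche signals 3 were higher and 1 lower. Chosen after their values were seen, these were Csf1, the growth factor of macrophages (1.19, SE 0.24), the Notch ligand Dll1 (0.88, SE 0.17), Notch2 (0.61, SE 0.13) and Bmp10, a secreted signal of the niche (-0.75, SE 0.21). Neutrophil markers were higher in 5 of 6, and sinusoidal endothelial markers had 0 of 11 called. Without the JNK1-/- array that stood apart, where 11.1% of all genes were called, the counts at 48 h were 9 of 10 for recruited and 4 of 13 for pan-macrophage genes, 3 of 8 for transcription factors, 2 of 11 for other resident genes, 2 of 7 for scavenger receptors and 6 of 6 for neutrophil markers, all higher. Niche signals then had 4 higher and 2 lower, and 1 sinusoidal endothelial marker was lower.

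Whether the ligation effect was larger at 28 d than at 48 h was tested as an interaction, in which 1.30% of all genes were called. Of the markers 2 were called, both with a larger effect at 28 d. For C1qc the effects were 1.17 at 28 d and 0.06 at 48 h, a difference of 1.11 (SE 0.20, adjusted p = 0.00929), and this call held in 20 of 20 alternatives. For Vsig4 they were 0.92 and -0.05, a difference of 0.98 (SE 0.23, adjusted p = 0.0414), which lost its call without any 1 of 9 of the 12 arrays. Cd163 had the largest difference, 1.32 (SE 0.34, adjusted p = 0.0629). C1qa (0.83, adjusted p = 0.058) and C1qb (0.87, adjusted p = 0.0639) were not called, and passed without the JNK1-/- array that stood apart (adjusted p = 0.0428 and 0.0469).

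The interaction has a ligated side and a sham side. In ligated control livers the later time had higher C1qc by 0.64 (SE 0.14, adjusted p = 0.00905), C1qa by 0.60 (SE 0.15, adjusted p = 0.0153), Cd163 by 0.89 (SE 0.24, adjusted p = 0.0244) and Vsig4 by 0.53 (SE 0.16, adjusted p = 0.0396). These 4 were called higher, 0 lower, where 10.4% of all genes were called, and a fit to these 6 arrays alone called 0 of the 4. The call of C1qa was lost without ligated replicate 3 at 48 h, that of Cd163 without replicate 1 at 28 d or replicate 1 or 2 at 48 h and with each array centred on its median, and that of Vsig4 without any 1 array but replicate 2 at 28 d. Timd4 differed by -0.56 (SE 0.21, adjusted p = 0.0959), and was called lower without the JNK1-/- array that stood apart (adjusted p = 0.0177) and with each array centred on its median.

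In sham livers the later time had lower values for all 9 markers, with a median of -0.37, against -0.01 for all genes. By limma 0 markers were called and 4 had an unadjusted p under 0.05, where 0.133% of all genes were called. C1qc read 9.06, 9.25 and 8.65 in sham livers at 28 d, against 9.42, 9.54 and 9.42 in the arrays labelled control sham 48 h, a difference of -0.47 (SE 0.14, adjusted p = 0.339). C1qb, Vsig4 and Timd4 likewise did not overlap between the sham groups. These sham groups differ in age and time, and the lower Mapk8 of the arrays labelled control sham 48 h lies on 1 side of the comparison. With those arrays as reference for ligation at 28 d, a choice made after the values were seen, 6 markers were called higher and the effect of C1qc was 0.70, of Marco 2.29 and of Vsig4 0.48, while Cd163 lost its call (0.41, adjusted p = 0.238). The share of all genes called with that reference is likewise not given beside the count.

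Loss of JNK1 in all cells was compared with the control genotype after ligation for 28 d. Cd163 was the 1 marker called, and it was lower in JNK1-/- liver. It read 6.48, 6.48 and 6.15 in JNK1-/- livers, against 8.39, 7.86 and 7.17 in control livers. The groups did not overlap, and the JNK1-/- values also lay below those of control sham livers at 28 d (6.80, 7.22 and 6.88). The difference was -1.44 (SE 0.24, 2.7-fold lower, adjusted p = 0.0056), where 0.627% of all genes were called in either direction. A fit to these 6 arrays alone, in which 1 gene of all was called, gave Cd163 an adjusted p of 0.56.

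The remaining 8 markers were not called. C1qc read 9.40, 9.43 and 9.90 in JNK1-/- livers, against 10.22, 10.12 and 10.14 in control livers. These groups were separate, and the difference of -0.58 (SE 0.14) missed the call at adjusted p = 0.0757, passing it after quantile normalization and without JNK1-/- replicate 3. C1qa (-0.40), C1qb (-0.33) and Vsig4 (-0.30) were not called, nor was Timd4 (0.48, SE 0.21, adjusted p = 0.365). The median over the 9 markers was -0.33, against -0.01 for all genes. Among the other macrophage lists Ctss was the 1 pan-macrophage gene called (-0.55, SE 0.11, adjusted p = 0.0148), and the recruited list had 0 of 10 called. The niche signal Bmp10, chosen after its value was seen, was lower by a difference of -0.92 (SE 0.21, adjusted p = 0.0441).

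JNK1Δhepa liver ligated for 28 d had Cd163 at 8.24, 7.53 and 7.69, within the range of the control livers. The difference from control was 0.01 (95% confidence interval -0.49 to 0.52), and the direct comparison of JNK1-/- with JNK1Δhepa gave -1.45 (SE 0.24, adjusted p = 0.00479, 0.962% of all genes called). Cd163 was the 1 marker called there, and its highest JNK1Δhepa value came from the array labelled JNK1Δhepa 28 d replicate 1, whose Mapk8 was at the control level. Without that array the difference was -1.24 and missed the call (adjusted p = 0.0533).

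Against control liver, JNK1Δhepa liver ligated for 28 d had 0 of 9 markers called, 4 at an unadjusted p under 0.05, where 0.228% of all genes were called. C1qa read 8.91, 9.06 and 8.95 in JNK1Δhepa livers, against 9.41, 9.54 and 9.79 in control livers, without overlap. Its difference was -0.60 (SE 0.15, adjusted p = 0.0782). C1qb (-0.40, adjusted p = 0.252) and C1qc (-0.32, adjusted p = 0.3) also did not overlap with control, and Cd5l was at -0.54 (SE 0.17, adjusted p = 0.152). Without control replicate 1 both C1qa and Cd5l were called, but so were 10.5% of all genes. The comparisons of the 2 mutants use the same control arrays, so their values for the C1q chains are not independent of each other.

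**Figure D3:**
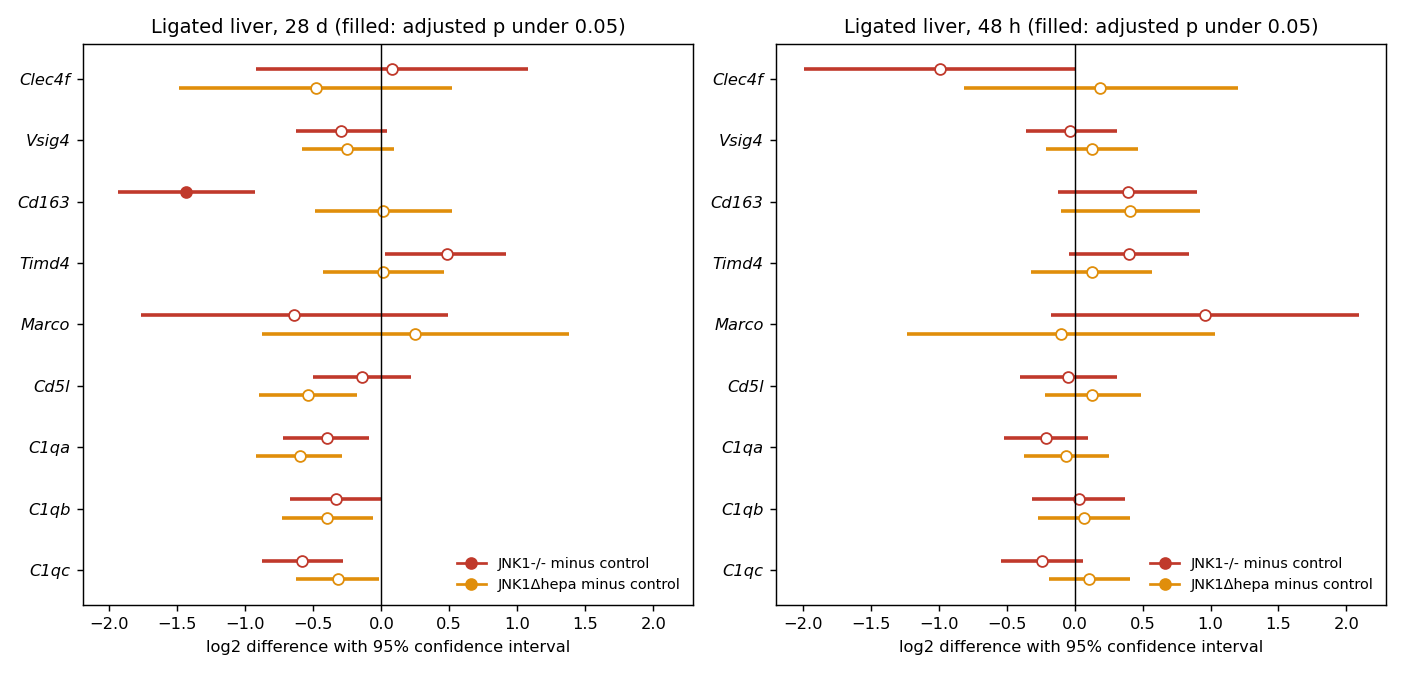
Log2 difference from ligated control liver (x axis) for each marker (rows), at 28 d on the left and 48 h on the right, for JNK1-/- in red and JNK1Δhepa in orange. Bars are 95% confidence intervals and filled points have an adjusted p under 0.05; the 1 filled point is Cd163 in JNK1-/- liver at 28 d.

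After ligation for 48 h no genotype difference of a marker was called. For JNK1-/- against control 0 of 9 were called, 0 at an unadjusted p under 0.05, where 2.30% of all genes were called. Cd163 read 7.35, 7.22 and 7.35 in JNK1-/- livers, against 6.69, 6.95 and 7.10 in control livers, a difference of 0.39 (SE 0.24, adjusted p = 0.49) in the direction opposite to 28 d. Clec4f differed by -0.99 (SE 0.48), Marco by 0.96 (SE 0.54) and Timd4 by 0.40 (SE 0.21). Without the JNK1-/- array that stood apart these were -0.05 (SE 0.26), 0.00 (SE 0.37) and 0.05 (SE 0.16), so 1 array carried all 3, and 1.24% of all genes were called.

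For JNK1Δhepa against control at 48 h 0 of 9 markers were called and 0 had an unadjusted p under 0.05. Over all genes 0% were called by limma, 607 genes had an unadjusted p under 0.05, and centring each array on its median called 1 gene. Cd163 had the largest difference, 0.41 (interval -0.10 to 0.92). For JNK1-/- against JNK1Δhepa at 48 h 0 markers were called, 2 at an unadjusted p under 0.05 (Clec4f and C1qc), where 2.44% of all genes were called. Clec4f differed by -1.18 (SE 0.48, adjusted p = 0.223) with all arrays and by -0.25 (SE 0.26) without the array that stood apart, where 1.21% of all genes were called. C1qc read 9.49, 9.22 and 9.14 in JNK1-/- livers, against 9.51, 9.60 and 9.79 in JNK1Δhepa livers, a difference of -0.35 (SE 0.14, adjusted p = 0.229).

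The change of each genotype difference between the times was tested directly. For JNK1-/- Cd163 was the 1 marker called, with differences from control of -1.44 at 28 d and 0.39 at 48 h and a change of -1.83 (SE 0.34, adjusted p = 0.0207), where 0.744% of all genes were called, and 0.255% without the JNK1-/- array that stood apart. The call was lost in a fit to these 12 arrays alone and without control replicate 1 or 2 at 48 h, with adjusted p of 0.00383 to 0.167 over all alternatives. Within JNK1-/- livers Cd163 was lower at 28 d than at 48 h by a difference of -0.93 (SE 0.24, adjusted p = 0.0427, 2.84% of all genes called), the opposite of control livers (0.89). This call was lost when any 1 of the 6 arrays was left out. For JNK1Δhepa 0 markers changed by limma, 3 at an unadjusted p under 0.05 (Cd5l at -0.67, C1qa at -0.55 and C1qc at -0.44), where 0% of all genes were called and 1338 had an unadjusted p under 0.05. Leaving out control replicate 1 at 28 d called 55 genes of all in this last comparison.

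Within JNK1Δhepa livers 2 of 9 markers, Timd4 and Cd5l, were called lower at 28 d than at 48 h. Since 18.0% of all genes were called there, this count is not a result about the markers as a set. Timd4 read 6.54, 6.91 and 7.03 at 28 d, against 7.29, 7.57 and 7.66 at 48 h, and Cd5l read 9.16, 9.77 and 9.55, against 10.15, 10.06 and 10.08. The times did not overlap for either gene. Timd4 fell by 0.68 (SE 0.21, adjusted p = 0.0313) and Cd5l fell by 0.60 (SE 0.17, adjusted p = 0.0181). In both genes the lowest value came from the array labelled JNK1Δhepa 28 d replicate 1, and neither call held without it. The call of Cd5l was also lost without replicate 1 at 48 h, and that of Timd4 without replicate 2 at 28 d or replicate 2 or 3 at 48 h. Clec4f, which read 8.70, 9.46 and 9.38 at 28 d, against 9.93, 9.91 and 9.99 at 48 h, was not called with all arrays (-0.76, SE 0.48, adjusted p = 0.319) and was called without the JNK1-/- array that stood apart (SE 0.23, adjusted p = 0.026). Between the sham groups Timd4 differed by -0.32 and Cd5l by -0.37. Between the times in ligated control and JNK1-/- livers Timd4 differed by -0.56 and -0.49, and Cd5l by 0.07 and -0.02. None of these was called with all arrays. The times also differ in the labelled age of the mice.

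The order of the 8 groups differed between markers, and most neighbours in it overlapped. Marco was above all sham arrays in every ligated group, and between its lowest ligated group, JNK1Δhepa at 48 h (mean 7.10 ± 0.36, SD, n = 3), and the sham groups (5.49 ± 0.38 and 5.36 ± 0.22) the arrays were apart. The other neighbouring groups of Marco overlapped. For C1qc and Vsig4 control liver ligated for 28 d came first, at 10.16 ± 0.05 and 10.99 ± 0.12, apart from JNK1Δhepa liver at 28 d (9.83 ± 0.14 and 10.74 ± 0.11). For Cd163 JNK1-/- liver at 28 d came last, at 6.37 ± 0.19, apart from control liver ligated for 48 h (6.91 ± 0.21). For Clec4f, Timd4, Cd5l and C1qa all 7 neighbouring pairs overlapped, and the group means spanned 8.76 to 10.09, 6.82 to 7.78, 9.17 to 10.10 and 8.69 to 9.58. The share of all genes with overlapping or separate groups was not counted, here or for the groups above. Such statements describe the arrays and are not results about the markers as a set.

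The array of JNK1-/- liver ligated for 48 h that stood apart did not shift all markers one way. Against the mean of the other 2 arrays Clec4f was at -2.81, Marco at 2.88 and Timd4 at 1.04, while the median of the 9 was 0.31 and that of all genes -0.02. Of 11 sinusoidal endothelial markers 8 were more than 1 log2 unit higher (median 1.24), among them Lyve1, a hyaluronan receptor, at 2.20. Spic, a transcription factor of macrophages that handle haem, was at 2.04, Id3, a factor needed by Kupffer cells, at -1.40, and Cd14, a receptor for endotoxin, at -2.43. Hepatocyte markers had a median of 0.00 and cholangiocyte markers of -0.93. Single enzyme genes of the hepatocyte were far apart in both directions, with Cyp7a1, the rate-limiting enzyme of bile acid synthesis, at 4.31, Cyp8b1, a later enzyme of that pathway, at 4.22, and Ces1f, a carboxylesterase, at -4.91. The chemokine gene Cxcl13 had the highest value of all genes against the other 2 arrays, at 5.13. The genes named here beside the markers were chosen after their values were seen. What sets this array apart was not tested.

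**Figure D4:**
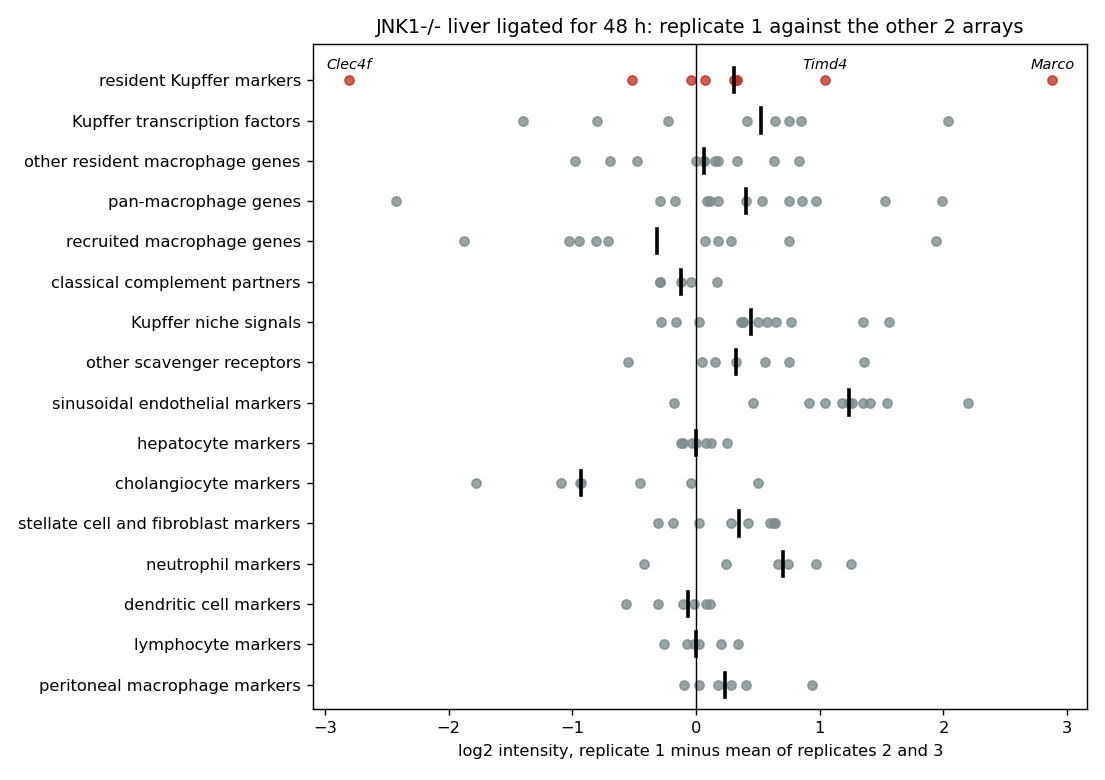
Log2 intensity in replicate 1 of JNK1-/- liver ligated for 48 h minus the mean of replicates 2 and 3 (x axis), for the genes of each list (rows); red points are the 9 markers, grey points other genes and black ticks list medians. Clec4f lies at -2.81 and Marco at 2.88, and 8 of 11 sinusoidal endothelial markers lie above 1.

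Genes with the pattern most like each marker were taken as the 3 with the highest Pearson correlation over the 24 arrays, given as a description over arrays that share groups. For Vsig4 they were led by Fcgr3 (0.83) and Ctss (0.82), for C1qb by Tyrobp (0.88) and P2ry12 (0.88), for C1qa by Ppic (0.87) and Ms4a7 (0.85), and for C1qc by Gltp (0.85) and Tmem86a (0.85). Cd5l was followed by Cyth4 (0.88), Tifab (0.87) and Ifi30 (0.87), and Marco by Grn (0.90), Csf2rb (0.88) and Ampd3 (0.88). Cd163 stood with Klhl29 (0.84), Nob1 (0.83) and Zbtb16 (0.81), of which none is in the macrophage lists, and its correlations with the other 8 markers ran from -0.38 (Timd4) to 0.37 (C1qc). Timd4 was led by Serpinf2 (0.87) and Gfra2 (0.85). Without the array that stood apart Timd4 was led by Extl3 (0.88), and Marco by Slc16a5 (0.96), with Grn at 0.94. Clec4f was led by Scd1 (0.86), but without the array that stood apart that correlation was 0.43 and Ifi27l2a came first at 0.88. The correlation of Clec4f with Timd4 likewise was -0.30 with that array and 0.66 without it.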

How the data were processed

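The deposited table holds log2 intensities, made by the authors with RMA (robust multi-array averaging), per the submitters' processing notes. The sources used here do not state its version or settings. RNA was extracted with TRIzol and RNeasy columns and labelled with biotin, per the labels' protocols. The annotation gave 1 gene symbol to 21218 of 35556 probe sets, several to 1881 and none to 12457. Only those with 1 symbol were used, and for each of 18820 symbols the probe set of highest mean was taken. No 2 arrays were identical. For arrays, their number limits the precision: the median SE was 0.129 for a difference and 0.183 for an interaction.

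Differences came from 1 model in limma 3.58.1 (R 4.3.3, package data.table at 1.17.8) with 8 group means over 24 arrays and 16 residual degrees of freedom, for 15 comparisons. P-values were adjusted by Benjamini and Hochberg over all genes of a comparison and called under 0.05. The procedure was tested on simulated data.

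The members, gene lists, comparisons and alternatives were chosen with earlier results of these data known. Of the list genes 8 had no usable probe set here. All 9 markers are named, with Mapk8, all complement partners, up to 4 genes of each other list with the smallest p for ligation at 28 d, and the 3 most correlated genes per marker, predicted genes left out; the text says where other genes were chosen after their values were seen. Promoter sequences are RefSeq's, on GRCm38.p6.

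Pairing by replicate number was checked through the correlation of deviations from group means. All 3 correlations passed 0.1 only for JNK1Δhepa against control at 28 d (0.50, 0.24 and 0.16), and the labels do not say what the number marks.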

Additional observations from a re-analysis of the deposited data

Results flagged for a closer look

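The effect of ligation on C1qc in control liver differed between the times, by 1.11 (log2) for 28 d minus 48 h, and that on Vsig4 by 0.98. In both, the test of the difference itself passed, but C1qc kept its call in 20 of 20 alternatives and Vsig4 in 11 of 20. Both use the arrays labelled control sham 48 h, with their lower Mapk8. For Cd163 the difference between JNK1-/- and control liver changed by -1.83 between 28 d and 48 h, again by the test of the change itself, and the sign was negative at 28 d and positive at 48 h. This call held in 16 of 19 alternatives, and not in a fit to these groups alone.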

How the results depend on the processing

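For ligation against sham in control liver at 28 d, 7 markers were called higher, and 6 to 7 without single arrays of the groups compared. At 48 h the count of 0 became 1 with dim symbols left out, with a replicate block, in a fit to the groups of the contrast and without JNK1-/- replicate 1 at 48 h (an alternative added after seeing the data), and 4 with the sham arrays of 28 d. Of all genes 9.43% were called at 48 h in the main fit. This share was 17.3% with dim symbols left out, 9.89% with the block and 13.7% in the fit to the groups. For the interaction of ligation and time the count of 2 became 4 after quantile normalization or centring on the array median, 5 with dim symbols left out and 4 without that JNK1-/- array, and 1 to 3 without single arrays. The interaction was called in 1.30% of all genes in the main fit. This share was 1.54% after quantile normalization, 1.64% after centring and 2.69% with dim symbols left out. For JNK1-/- against control at 28 d the count of 1 became 2 after quantile normalization and 0 in a fit to these groups alone, and 1 to 2 without single arrays. In a fit to the groups of the contrast alone it became 0 for the change of the JNK1-/- difference over time (main count 1) and for ligated control liver at 28 d against 48 h (main count 4), and 4 for JNK1Δhepa (main count 2). Without single arrays of the groups compared the counts were 0 to 2 for JNK1Δhepa against control at 28 d, 0 to 1 for JNK1-/- against JNK1Δhepa at 28 d, 0 to 1 for the change of the JNK1-/- difference, 2 to 4, 0 to 0 and 0 to 2 for 28 d against 48 h in control, JNK1-/- and JNK1Δhepa liver, and 0 for the other 6 comparisons. Without that JNK1-/- array, which lies outside both comparisons, the count for 28 d against 48 h was 5 in control and 3 in JNK1Δhepa liver. The cause of these shifts was not tested, beyond the fewer arrays that some settings use. The share of all genes is not given for every setting, and the counts are not read as results about the markers. The replicate block changed no other count of called markers, and the pairing by number is not given by the labels. Over 40 single results, 612 alternatives gave 538 with the same call, 46 that lost it and 28 that gained it. Among results called in either setting 0 had the opposite direction. A change of sign between uncalled results counts as the same call. For C1qb at 48 h, for example, the difference was 0.14 and ran from -0.03 to 0.58 over the alternatives. With median centring the median over all genes at 28 d was -0.23, in place of -0.03.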
